A study of Mus musculus with 6 samples.

Results

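A set of 3 genes of carbohydrate and glycerol metabolism, Gk, G6pd2 and Ldhal6b, were followed from prenatal to adult mouse liver. Their probes were identified by the RefSeq mRNA that the array files give as the systematic name of a probe, and not by their signal. The genes themselves were chosen with earlier results of these data known. The arrays carried 15 probes with such a name among 60930 probes that are not controls, and 3 of the 15 were these genes. Each of the 3 was printed as 1 probe on 20 spots of every array. The prenatal group was liver RNA of C57BL/6 mice at embryonic day 18 (3 arrays); the description field of the same samples names a stage slightly later in that day. The adult group was liver RNA of C57BL/6 mice aged 2 months (3 arrays). No genotype or treatment is named for either group, and the RNA was bought from a supplier. The series' design text speaks of 3 different animals, and p-values measure the spread between these arrays. The tissue field of the prenatal samples reads embryo, while their source name reads prenatal liver.

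Glycerol kinase, encoded by Gk on the X chromosome, phosphorylates glycerol to glycerol 3-phosphate, through which the liver channels glycerol into glucose or into glycerolipids. Glucose-6-phosphate dehydrogenase opens the pentose phosphate pathway and yields NADPH. G6pd2 is an autosomal retrocopy of the X-linked gene G6pdx that encodes this enzyme, and is known from the male germ line. Lactate dehydrogenases interconvert pyruvate and lactate, and Ldhal6b encodes a member of that family that is likewise known from testis.

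The start regions of the 3 genes differ in base composition, a property that the choice of the genes did not use. The sequences are the 250 bases before the annotated gene start, 5′ to 3′ on the strand of the gene, credited to RefSeq on GRCm38.p6. Capitals mark CG dinucleotides, the sites of most DNA methylation in mammals. They are shown because Gk and the pair of genes known from testis differ clearly in them.
Gk, chrX:85776820-85777069, minus strand: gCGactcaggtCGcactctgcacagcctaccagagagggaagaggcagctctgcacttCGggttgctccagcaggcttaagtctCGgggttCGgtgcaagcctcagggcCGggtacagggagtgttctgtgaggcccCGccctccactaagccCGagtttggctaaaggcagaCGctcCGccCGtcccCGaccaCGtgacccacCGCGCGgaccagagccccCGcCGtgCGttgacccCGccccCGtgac
G6pd2, chr5:61808593-61808842, plus strand: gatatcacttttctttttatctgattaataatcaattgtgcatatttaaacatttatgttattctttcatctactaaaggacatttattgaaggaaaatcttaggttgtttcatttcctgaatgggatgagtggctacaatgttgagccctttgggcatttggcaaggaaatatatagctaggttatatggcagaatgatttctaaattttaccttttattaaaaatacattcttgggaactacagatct
Ldhal6b, chr17:5418768-5419017, minus strand: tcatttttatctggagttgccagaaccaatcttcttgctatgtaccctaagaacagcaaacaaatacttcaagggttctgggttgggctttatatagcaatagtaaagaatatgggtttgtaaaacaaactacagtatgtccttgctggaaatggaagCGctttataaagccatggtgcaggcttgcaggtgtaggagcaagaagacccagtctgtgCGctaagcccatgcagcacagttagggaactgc
The Gk window held 21 CG dinucleotides and 67.2% G or C. More CG dinucleotides were found in 14.8% of the 32851 windows of this length in the table, whose median was 6. The Ldhal6b window held 2 and was 43.6% G or C, and the G6pd2 window held 0 and was 30.0% G or C. More CG dinucleotides than in the G6pd2 window were found in 92.1% of windows. The letters TATAAA, searched on both strands, occurred in the Ldhal6b window and in 12.4% of all windows. The letters CACGTG, also searched on both strands, occurred in the Gk window and in 6.02% of all windows. In the same search, CCAAT occurred in the Ldhal6b window and in 33.9% of all windows, and GGGCGG in the Gk window and in 32.7%. These matches describe letters only, and no measurement of these arrays was made at the windows.

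Signals are given as log2 of the processed spot signal minus log2 of the 75th percentile of the array, so that 0 is the upper quartile of all non-control spots. The raw 75th percentile ranged from 69.4 to 151.9 intensity units over the 6 arrays, and 45.1% to 60.5% of non-control spots lay well above background. A value of one probe is not comparable with a value of another, since probes bind with different strength. In these bulk samples, fewer cells of a type and less RNA per cell cannot be told apart. Liver identity could not be read from the hepatocyte list, because the array files name 0 of its 7 genes. The 2 marker genes that could be read were Tfrc of the erythroid list, with a log2 difference, adult minus prenatal, of -3.62, and B2m of the leukocyte and antigen presentation list, with 2.75. Both passed the limma test. Their part in the values of the 3 genes was not tested.

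Gk had prenatal log2 signals of 0.19, 0.18 and 0.36 and adult log2 signals of 0.75, 0.59 and 0.52 in replicates 1, 2 and 3. All 3 adult arrays lay above the 3 prenatal ones, with a gap of 0.16 between the nearest arrays. The mean log2 signal was 0.24 ± 0.10 (SD, n = 3) on prenatal and 0.62 ± 0.12 (SD, n = 3) on adult arrays. The difference of 0.38 is 1.30-fold, with a 95% interval from 0.890-fold to 1.89-fold, and did not pass the test (limma adjusted p = 0.264). Gk varied little among arrays of one age: 98.3% of tested probes had a larger residual SD. The limma test moderates the spread of each probe towards that of all probes, and its standard error of the Gk difference was 0.23. The median spot of Gk ranged from 83.0 to 189.6 raw units after background subtraction over the arrays. The local background was 22.5 to 27.0, and all 120 spots were well above background.

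G6pd2 had prenatal log2 signals of -0.73, -1.10 and -1.48 and adult log2 signals of -1.66, -1.55 and -1.51. The adult values lay close together, and the prenatal ones spread over 0.75, with prenatal replicate 3 only 0.03 above the highest adult array. The mean was -1.10 ± 0.37 (SD, n = 3) on prenatal and -1.57 ± 0.08 (SD, n = 3) on adult arrays. The prenatal mean was thus 1.39 times the adult one, with a 95% interval from 0.878-fold to 2.19-fold (limma adjusted p = 0.249), so the difference did not pass the threshold. Prenatal replicate 1 was the highest array, and without it the log2 difference, adult minus prenatal, moved from -0.47 to -0.29. In the fit with array weights, where prenatal replicate 1 had the lowest weight, the difference was -0.17 (limma adjusted p = 0.502). The median spot ranged from 23.9 to 70.0 raw units after background subtraction over the arrays, against a local background of 22.0 to 27.0. On adult replicates 2 and 3 it was 23.9 and 27.4, where the local background read 24.5 and 27.0. Of 120 spots, 117 were well above background. The 3 others all lay on adult replicate 2. The X-linked gene G6pdx has no probe named in the array files. The probe sequence was not used here, so whether the G6pd2 probe also reads G6pdx transcripts was not tested.

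Ldhal6b had prenatal log2 signals of -2.13, -0.54 and -0.85 and adult log2 signals of -0.36, -0.32 and -0.18. All adult arrays lay above all prenatal arrays by at least 0.19, and prenatal replicate 1 differed by -1.43 from the mean of the other prenatal arrays. A drop of this size on that array was not particular to Ldhal6b. Among the 12 other mRNA probes the same difference ran from -1.43 for Tbp and -1.05 for Gusb to 0.65 for Tuba1b. In the fit with array weights, prenatal replicate 1 had the lowest weight of the 6 arrays, 0.165. The mean was -1.17 ± 0.84 (SD, n = 3) on prenatal and -0.29 ± 0.09 (SD, n = 3) on adult arrays. The difference of 0.89 is 1.85-fold, with a 95% interval from 0.901-fold to 3.80-fold, and did not pass the test (limma adjusted p = 0.177). The size rested largely on 1 array: without prenatal replicate 1 the log2 difference was 0.41 (limma adjusted p = 0.216). On that array the median Ldhal6b spot was 17.6 raw units after background subtraction, where the local background read 27.0, and 15 of 20 spots were well above background. On the other 5 arrays all 20 spots were. Without prenatal replicate 2 the difference was 1.20, the largest among the fits that left out 1 array (limma adjusted p = 0.0984).

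**Figure D1:**
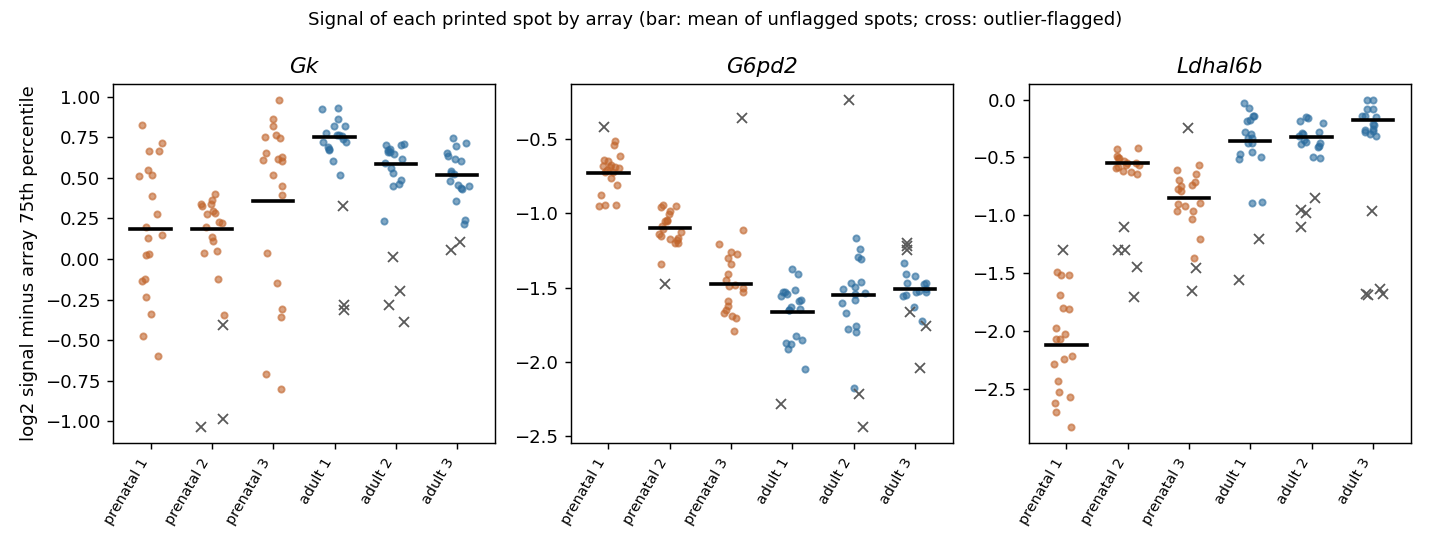
Log2 signal minus the array's 75th percentile (vertical axis) of all 20 spots of each gene on each array (horizontal axis), prenatal in orange and adult in blue. Bars are the array means over spots without an outlier flag, and crosses are spots with one. The bars of Gk and Ldhal6b are all higher on the adult arrays, those of G6pd2 all lower, and prenatal replicate 1 is the lowest array of Ldhal6b and the highest of G6pd2.

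Across the fit, 0 of the 3 genes differed at a limma adjusted p under 0.05, where 27.8% of 32330 tested probes did. At an unadjusted limma p under 0.05 the count was also 0 of 3, against 40.4% of tested probes. For each of the 3 genes, the adult arrays lay all on one side of the prenatal ones. That pattern was common on these arrays: 47.6% of the 32250 tested probes with a value on every array showed it, in either direction. The exact two-sided permutation test over the 6 arrays gave p = 0.1 for each gene, the smallest that 3 against 3 arrays allow. Larger absolute log2 differences than that of Gk were found for 71.1% of tested probes. The corresponding shares were 64.7% for G6pd2 and 42.9% for Ldhal6b. The median absolute log2 difference of all tested probes was 0.73, so Gk and G6pd2 lay below it and Ldhal6b above.

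**Figure D2:**
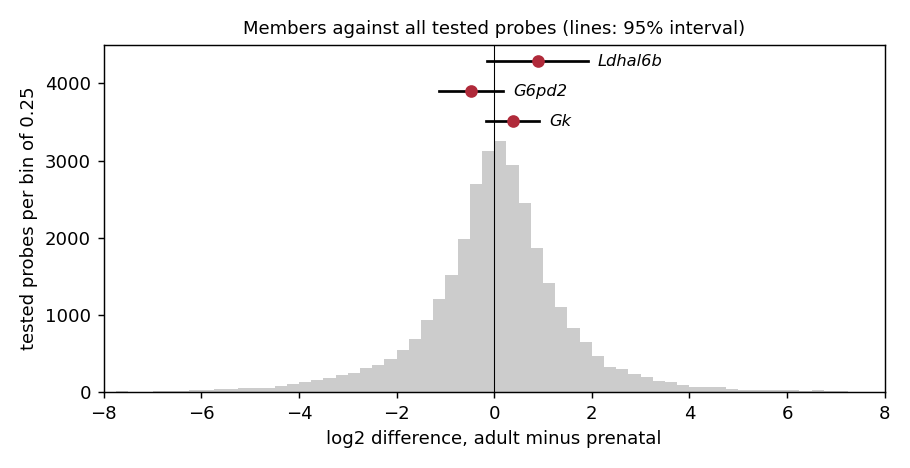
Histogram of the log2 difference, adult minus prenatal (horizontal axis), of the tested probes, in bins of 0.25 (vertical axis: probes per bin, shown between -8 and 8). Red points are the 3 genes and black lines their 95% limma intervals, each of which includes 0, at differences of 0.38 for Gk, -0.47 for G6pd2 and 0.89 for Ldhal6b.

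The 20 spots of a probe on one array repeat one hybridisation, so they measure the precision of an array's value and are not replicates of an age. With all spots kept, the SD between spots had a median over arrays of 0.39 for Gk, 0.39 for Ldhal6b and 0.21 for G6pd2. For the 12 other mRNA probes this median ranged from 0.025 to 0.145. The 3 genes therefore had the widest spot spread of the 15 probes. Their spots were also dim, as a matter of brightness over background and not of transcript level. After background subtraction, the lowest array median was 83.0 raw units for Gk, 23.9 for G6pd2 and 17.6 for Ldhal6b. For the 12 others it ranged from 34.5 to 46267. Tbp, which encodes the TATA-binding protein of the transcription machinery, had the dimmest value of those 12 and, with 0.145, the widest spread among them.

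The wide spread followed the position of the spots, though less clearly by side on prenatal replicate 1. Spots more than 0.5 below the median spot of their array numbered 19 of 120 for Gk, 24 of 120 for Ldhal6b and 5 of 120 for G6pd2. Every one of these low spots lay in columns 1 to 82, the left side of an array of 164 columns. The right side, with 54, 72 and 72 spots of the respective genes over the 6 arrays, held 0. A total of 4 positions of Gk and 5 of Ldhal6b were low on at least 3 of the 6 arrays. These positions lay at or left of column 40 for Gk and column 44 for Ldhal6b. On prenatal replicate 1 the right side was nearly as wide as the left. The SD of left-side and right-side spots there was 0.40 and 0.37 for Gk, and 0.47 and 0.39 for Ldhal6b. Right-side Gk spots of that array lay above its median spot in rows 32 to 136 and below it in rows 319 to 337.

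With all spots kept, the left-side mean was below the right-side mean on every array for each of the 3 genes. The left-minus-right log2 difference ranged from -0.63 to -0.21 for Gk, from -0.76 to -0.35 for Ldhal6b and from -0.16 to -0.06 for G6pd2. For the 12 other mRNA probes it ranged from -0.13 to 0.05 over all their arrays. Among these, Tbp was also lower on the left on 6 of 6 arrays, with differences of -0.13 to -0.02, a range that overlapped that of G6pd2. For Tbp this rested in part on spots with an outlier flag, 4 in total, all on the right side. On adult replicate 1 its left-side mean was 0.263, and its mean over all spots without a flag was lower, 0.257. With all spots kept, an offset as small as that of G6pd2 was thus not particular to the 3 genes. Those of Gk and Ldhal6b lay outside the range of the 12 others on every array. Probes outside the mRNA set, which are not the same on each side, were read only where no array had an outlier flag. For these probes, the left-minus-right difference of the medians was -0.26 to -0.14 over the arrays. For those of them that were well above background on all 6 arrays, it was 0.09 to 0.13, in the other direction. For the 3 genes, the lower left-side signal was seen at both ages, as the plot of spot signal by column shows.

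**Figure D3:**
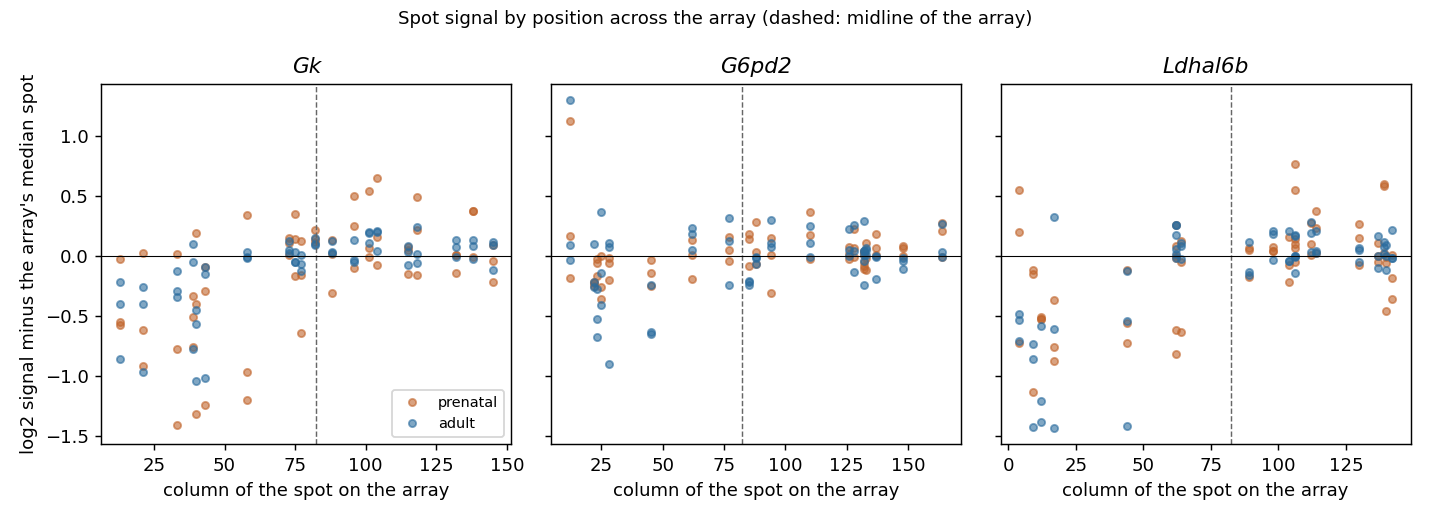
Log2 signal of each spot minus the median spot of its array (vertical axis) against the column of the spot on the array (horizontal axis), for 6 arrays, prenatal in orange and adult in blue, with the midline dashed. All spots below -0.5 lie left of the midline, 19 for Gk, 5 for G6pd2 and 24 for Ldhal6b. A single G6pd2 position near the left edge was high on 2 arrays.

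The scanner software's outlier flag removed many of these spots, and not evenly. It marked 12 Gk spots, all on the left side, 20 Ldhal6b spots, 18 of them there, and 13 G6pd2 spots, 10 of them there. For Gk, 0 spots were marked on prenatal replicates 1 and 3, where the spot SD was 0.42 and 0.54, and 2 to 4 on each of the other arrays. With all spots kept the log2 difference of Gk was 0.32 in place of 0.38. With right-side spots only it was 0.24 (limma adjusted p = 0.511), and with left-side spots only 0.47 (limma adjusted p = 0.169). On right-side spots the prenatal and adult values of Gk overlapped, as they did with the median over spots, and with a spot marked on any array left out on all of them. The non-overlap of Gk thus depended on the choice of spots.

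For Ldhal6b the log2 difference was 0.83 with right-side and 0.99 with left-side spots, and the groups did not overlap in either. For G6pd2 it was -0.51 and -0.42, and the left-side values overlapped. Compared position by position over all spots, the adult mean was above the prenatal mean at 20 of 20 positions for Gk, with differences of 0.07 to 0.88, and at 20 of 20 for Ldhal6b, with 0.25 to 1.19. For G6pd2 it was below at 20 of 20 positions, with -0.87 to -0.26. The positions were read on the same 6 arrays and are no replicates of an age.

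The arrays came from 2 scan sessions, by the scan time in the file headers. The first held prenatal replicates 2 and 3 and adult replicates 1 and 2, and the other held prenatal replicate 1 and adult replicate 3. The log2 difference of Gk was 0.40 in the first session and 0.33 in the other. For G6pd2 it was -0.32 and -0.78, and for Ldhal6b 0.36 and 1.94. The direction was the same in both sessions for each gene, while the sizes for G6pd2 and Ldhal6b were over 2 times apart. The second session has 1 array of each age and allows no test, and prenatal replicate 1 and that session cannot be told apart here. In the fit on the first session, limma gave adjusted p = 0.27 for Gk, 0.406 for G6pd2 and 0.331 for Ldhal6b.

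**Figure D4:**
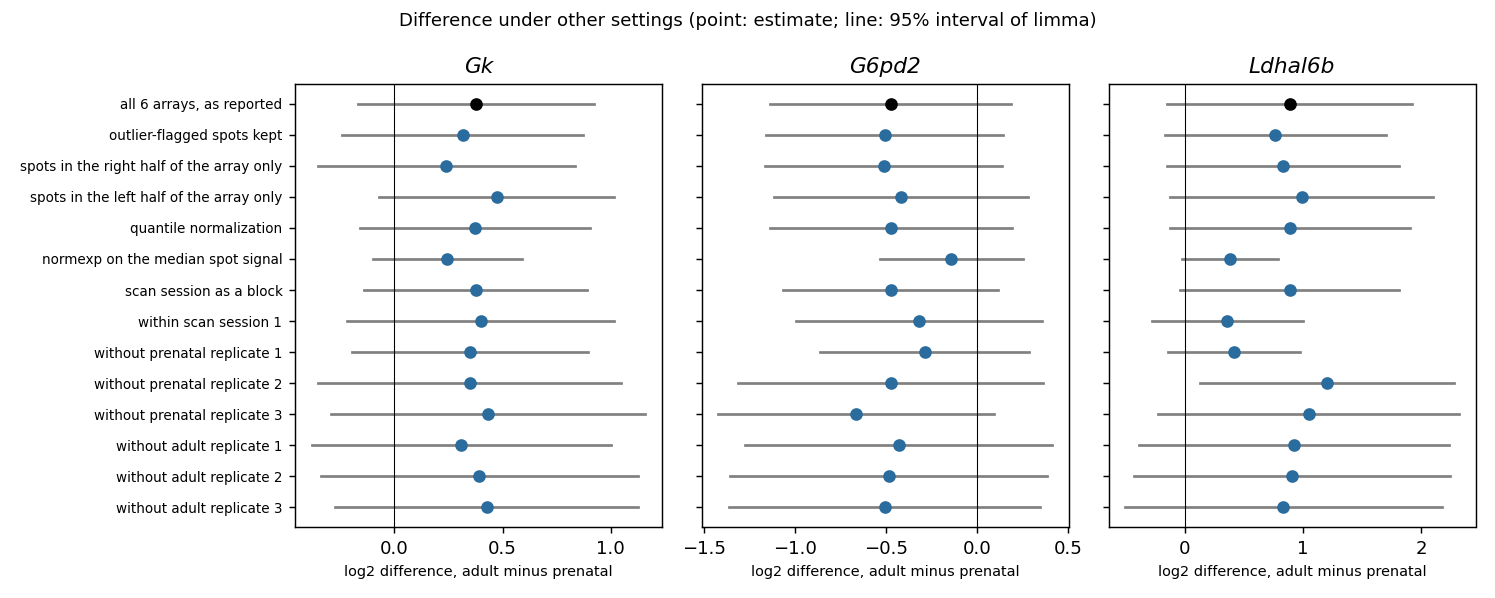
Log2 difference, adult minus prenatal (horizontal axes, which differ in scale), of the 3 genes under 14 settings (vertical axis). Points are estimates and lines 95% limma intervals; the Ldhal6b estimate is 0.41 without prenatal replicate 1 and 0.36 within scan session 1, against 0.89 with all arrays.

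Over the 6 arrays, none of the 3 genes had another of them as its nearest probe. Likeness was measured as the root mean square distance between the log2 values of 2 probes over the 6 arrays, each probe centred on its own mean, so that 0 is the same pattern. For Gk the nearest of the 14 other mRNA probes were Ppia, a peptidyl-prolyl isomerase, at 0.25 and Nono, a nuclear RNA-binding protein, at 0.27. For G6pd2 they were the ribosomal protein gene Rpl13a at 0.29 and Hprt, of purine salvage, at 0.36. For Ldhal6b they were Gusb, a lysosomal glucuronidase, at 0.44 and Gapdh at 0.50. Among themselves, Gk lay 0.51 from G6pd2 and 0.55 from Ldhal6b, and G6pd2 and Ldhal6b lay 0.95 apart. To G6pd2, 10 of the other probes were nearer than Ldhal6b was. The distances include prenatal replicate 1 and grow with the size of a probe's changes. On that array Ldhal6b differed by -1.43 and Gusb by -1.05 from the mean of the other prenatal arrays. Distances without that array were not computed, so its part in them was not tested.

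The pathways around the 3 genes could be read only at single points. Of 70 genes in lists of glycerol and triglyceride handling, the pentose phosphate pathway, lactate and pyruvate metabolism, and glycolysis with gluconeogenesis, the array files name 4, which are the 3 genes and Gapdh, a glycolytic enzyme. None of the 4 passed the limma test in either direction. The log2 difference of Gapdh was 0.10 (limma adjusted p = 0.845, unadjusted p = 0.765). Of 6 testis germ cell markers, 0 have a probe named in the files.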

How the data were processed

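Liver RNA of 3 prenatal and 3 adult mice was read on 1-colour Cy3 arrays. The authors deposited scanner output, for which the submitters' processing notes list Agilent Feature Extraction in version 11.0.1.1. In these deposited files the processed signal is a spot intensity on a linear scale after background subtraction. The authors also deposited a table of log2 values for 17307 probes, whose normalisation is not given in the sources used here; it holds 0 of the 15 mRNA probes and was not used. Groups and replicate numbers came from the sample titles. Log2 processed signals were averaged over the spots of a probe without an outlier flag and scaled to each array's 75th percentile over non-control spots. A probe was tested when well above background on at least 3 of 6 arrays (a repeated probe counted on an array where no fewer kept spots were above than not). The ages were compared by lmFit and eBayes of limma 3.58.1 (R 4.3.3), two-sided, with Benjamini-Hochberg adjustment over all tested probes and a threshold of 0.05; the fit was tested on simulated data. The accessions were named through a RefSeq gene table, in which all 15 matched. The array files name another build, so the only coordinates given are those of the RefSeq start windows, on GRCm38.p6, and none is given for the probes. The genes named are the 3 members, the 2 probes nearest to each by pattern, and measured members of the lists. Tbp and Tuba1b were named after their values were seen. The members and lists were chosen with earlier results of these data known. The number of arrays limits the precision.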

Additional observations from a re-analysis of the deposited data

How the results depend on the processing

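No alternative turned the direction of any of the 3 genes, and 0 of 78 limma refits of the 3 genes passed the threshold after adjustment (4 had an unadjusted p under 0.05, 3 of them for Ldhal6b and 1 for Gk). The log2 difference ranged from 0.24 to 0.69 for Gk (limma adjusted p from 0.106 to 0.511), from -0.66 to -0.14 for G6pd2 (0.174 to 0.784) and from 0.36 to 1.20 for Ldhal6b (0.0619 to 0.336). With 1 array left out at a time the values were 0.31 to 0.43, -0.66 to -0.29 and 0.41 to 1.20. Within the second scan session the differences were -0.78 for G6pd2 and 1.94 for Ldhal6b. The following alternatives were chosen after seeing the data: the normexp correction, the sides of the array, leaving a marked spot out on all arrays, and scaling to the 12 other mRNA probes. The normexp correction with an offset of 50 gave 0.25, -0.14 and 0.38 for Gk, G6pd2 and Ldhal6b; an offset shrinks the differences of dim probes by construction. It was run on the median spot signal in place of the planned mean signal. Scaling to the 12 other mRNA probes, which include Tfrc, Tuba1b and B2m, moved the median difference of all tested probes from 0.06 to 0.38 and gave 0.69, -0.16 and 1.20, and G6pd2 values then overlapped between the ages.

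With outlier-marked spots kept, the spot spread moved from 0.17 to 0.39 for Gk and from 0.16 to 0.39 for Ldhal6b. The count of called probes was 8984, against 5962 for probes above background on all 6 arrays, 15364 with array weights, 4502 with a replicate block, and 5308 to 11558 without 1 array (5694, 5308 and 5384 without adult replicates 1, 2 and 3); the cause was not tested. The deviations of same-numbered arrays from their group means had correlations of -0.525, -0.349 and -0.313 over tested probes. For arrays with different numbers the correlations ran from -0.486 to 0.648. Deviations from a mean of 3 arrays are tied to each other, so these values cannot decide on pairing. The numbers were not taken to pair the arrays, because no pairing is stated. With the replicate block, the differences of the 3 genes were 0.38, -0.47 and 0.89, and it changed no call of them. The authors' table gave no value, as it lists none of the 3 probes. Signal over background limits Ldhal6b on prenatal replicate 1 most, with 15 of 20 spots well above background.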
